A study of Nicotiana tabacum with 16 samples.

Results

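Roots of tobacco (Nicotiana tabacum) carrying recessive alleles at Nic1, Nic2 and Myc2a were compared with roots carrying recessive alleles at Nic1 and Nic2 alone. The comparison took 7 of the 16 root libraries, 4 of the genotype nic1 nic2 myc2a and 3 of nic1 nic2, chosen by the genotype in the labels, and covered all 63697 gene models of the count table. Both genotypes are in the background of the cultivar K326, so the nic1 and nic2 alleles and the background are shared and myc2a is the labelled difference. All plants were decapitated (topped) at flowering and roots were collected 18 h later. The other 9 libraries, 4 of K326 with dominant alleles at the 3 loci and 5 of myc2a, entered the same fit and are given as reference levels. Whether each library came from its own plant is not said in the labels, so p-values measure the spread between these libraries, which may be technical. The labels also give no line or generation within a genotype, so the myc2a allele and any other difference between the lines cannot be told apart.

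Nicotine is made in roots and carried to the leaf, and removal of the flowering shoot tip stimulates its synthesis through jasmonate. MYC2a belongs to the bHLH transcription factors that jasmonate signalling releases from repression. The Nic loci set how much nicotine a plant makes. At Nic2 lies a group of clustered ERF genes, whose products act with MYC2 factors on genes of nicotine synthesis. The series set out to follow root expression across genotypes at these loci. Here 0 of the 63697 identifiers matched a gene name in the reference table used, so no gene model could be assigned to nicotine synthesis, the ERF cluster or MYC2a, the labels could not be checked by the targeted genes, and the tissue label could not be checked against root markers. Gene models are given by identifier, made of an ID group (1 to 24, or 0 for models without one) and a serial. Whether serials run in chromosome order is not given in the labels or files.

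Of the gene models, 15391 had 0 counts in all 7 libraries, and 43009 passed the filter on low counts and were tested. Total counts were 33.1, 34.9 and 32.2 M in the nic1 nic2 libraries and 33.6, 34.4, 32.7 and 33.7 M in the nic1 nic2 myc2a libraries. The library nic1 nic2 replicate 3 stood apart. It detected 41283 gene models against 43866 to 44728 in the other 6, and its mean Spearman correlation with its own group was 0.946 against 0.960 and 0.961 for the other replicates of that genotype. Among the reference libraries, myc2a replicate 5 detected 42797 gene models against 44215 to 45294 in its group. Its mean correlation was 0.953 against 0.962 to 0.974. K326 replicate 2 had a total count of 71.8 M. Where a call of a named gene model was lost without nic1 nic2 replicate 3, this is said with its edgeR adjusted p or the range of a set. RNA was taken from whole roots, so fewer cells of a type and less RNA per cell cannot be told apart.

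A gene model was called at a Benjamini-Hochberg adjusted p under 0.05 in edgeR's quasi-likelihood test over all tested gene models, and 174 were called, which is 0.405% of 43009. Of these, 132 were higher (0.307%) and 42 lower (0.0977%) in nic1 nic2 myc2a. In all 174 the libraries of both genotypes did not overlap, against 11.1% of all tested gene models with no overlap in either direction. An unadjusted p under 0.05 was found for 5657 gene models (13.2%), and for 4092 without nic1 nic2 replicate 3. DESeq2 called 638 gene models, and without myc2a replicate 5 edgeR called 291. On simulated data for this comparison 32% of 2-fold and 69% of 4-fold changes were recovered, so differences of this size can go uncalled. The median log2 fold change of all tested gene models was -0.01. The calls fell into 3 sets: a stretch of neighbouring identifiers in ID group 18 with 97 calls, short runs in ID groups 19 and 24 with 15 calls, and 62 calls elsewhere.

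The stretch covered serial numbers 18660 to 22210 of ID group 18. It had been found in these same libraries in an earlier analysis as a region lower in nic1 nic2, so its counts are a description and support nothing on their own. Of its 356 gene models, 62 had no counts in any of the 16 libraries, another 40 had counts but did not pass the filter, and 254 were tested. All 97 called members were higher in nic1 nic2 myc2a, which compares with 0.307% called higher among all tested gene models. None was called lower by edgeR (0 of 23 with a negative log2 fold change, 2 of them with an unadjusted p under 0.05), and DESeq2 called 0 lower. Among the called members the median log2 fold change was 1.11, with a range from 0.67 to 2.44. Of them 69 were more than 2-fold higher and 1 more than 4-fold.

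The shift was spread evenly over the stretch. Among the 194 members whose mean log2 CPM (counts per 1 M counts of a library) was 1 or more, 189 had a positive and 5 a negative log2 fold change, and the libraries of both genotypes did not overlap in 151 in the higher direction, against 6.28% of gene models of that level outside the stretch. The median log2 fold change of the 194 was 0.99 with quartiles of 0.78 and 1.24, and for 33557 gene models of that level outside the stretch it was 0.00. Cut by order into 4 parts of 48 or 49 members, the stretch had medians of 1.02, 0.91, 1.07 and 0.89, with 28, 23, 26 and 20 calls. The number of calls followed the level of the gene models: 0 of 60 were called below a mean log2 CPM of 1, 18 of 61 between 1 and 3, 44 of 87 between 3 and 5, and 35 of 46 from 5 upwards. The median log2 fold changes in the upper 3 of these classes were 1.04, 0.97 and 0.99. They differed by less than the quartile range within each class.

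**Figure D1:**
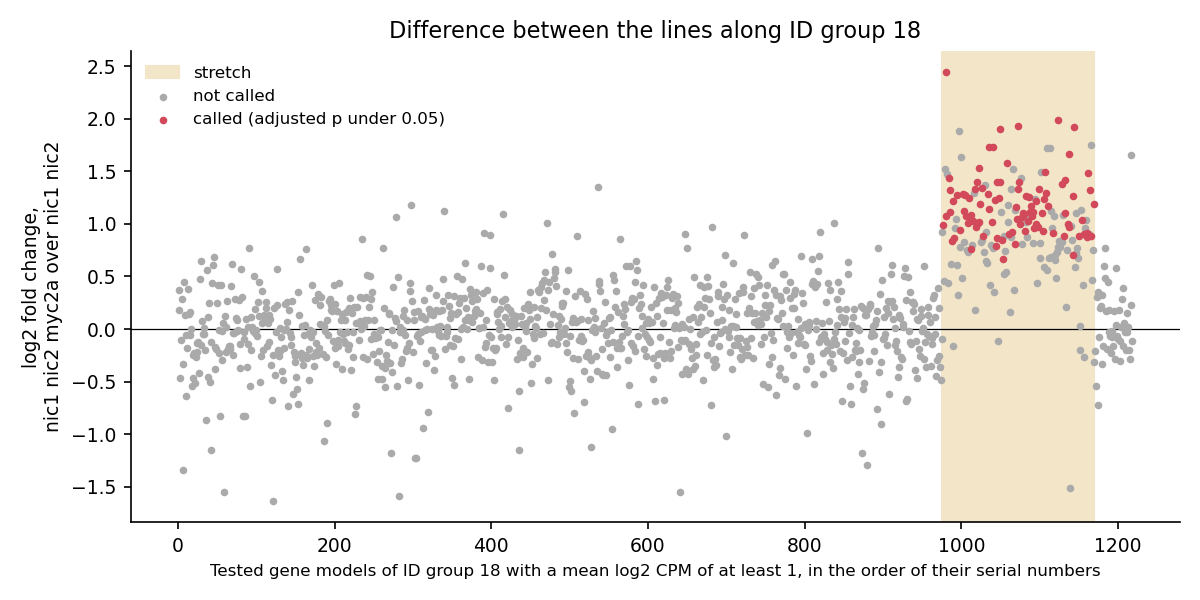
Log2 fold change of nic1 nic2 myc2a over nic1 nic2 for tested gene models of ID group 18 whose mean log2 CPM was 1 or more, in the order of their serial numbers; red points are called at an adjusted p under 0.05 and the shaded band is the stretch. The 97 called points lie inside the band, around a median of 0.99 for all of its points, and points to either side scatter around 0.

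Taken per library, the stretch was low in nic1 nic2 alone of the 4 genotypes. The median level over these 194 members, as a percent of the nic1 nic2 mean, was 102, 103 and 96.1% in the nic1 nic2 libraries. In nic1 nic2 myc2a it was 196, 192, 189 and 195%. The groups did not overlap, and the spread within each was a small part of the gap between them. The K326 libraries ranged from 182 to 192% and the myc2a libraries from 183 to 191%, so nic1 nic2 myc2a stood beside the genotypes with dominant Nic alleles. Taken against the K326 mean, the 4 nic1 nic2 myc2a libraries were at 102, 102, 98.5 and 103%, and the 3 nic1 nic2 libraries at 53.0, 52.2 and 50.4%. The share of all counts falling in the stretch was 0.312 to 0.317% in nic1 nic2, against 0.583 to 0.635% in nic1 nic2 myc2a. Gene models of ID group 18 outside the stretch were at 98.3 to 101% of the nic1 nic2 mean in the 7 libraries.

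**Figure D2:**
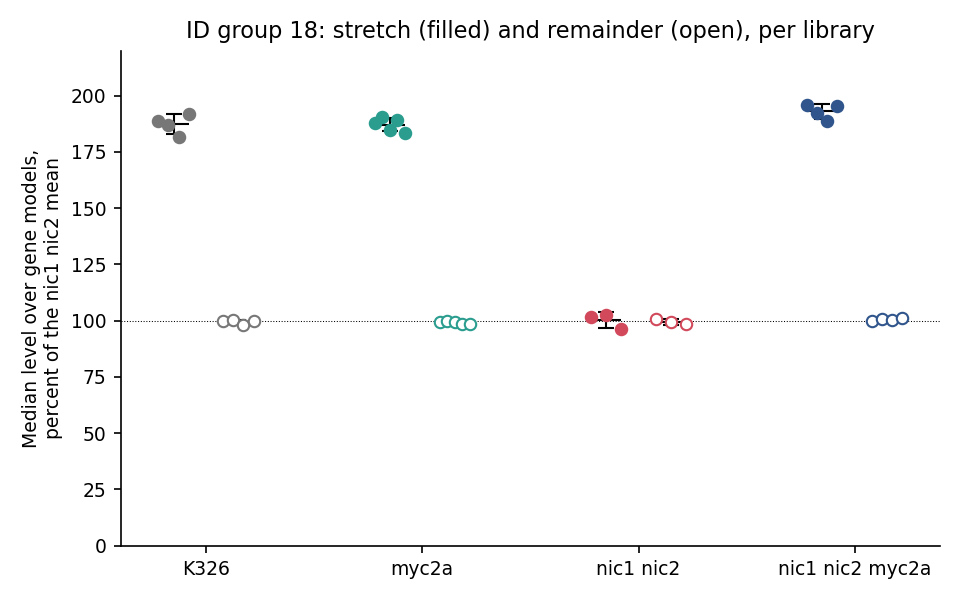
Median level over gene models of ID group 18 per library, as a percent of the nic1 nic2 mean, for the stretch (filled points) and the remainder of the ID group (open points), with mean and SD as bars. The stretch lies near 100% in the 3 nic1 nic2 libraries and between 182 and 196% in the other 13, and the remainder lies near 100% in every library.

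The gene models on either side of each end show where the stretch was drawn. Just inside the first end, Ntab18g018690-1.1 was at 10.6, 13.3 and 16.5 CPM in nic1 nic2 and at 29.4, 25.7, 27.4 and 24.2 CPM in nic1 nic2 myc2a, and its neighbour Ntab18g018660-1.1 averaged 5.95 ± 1.99 (SD, n = 3) against 11.3 ± 1.59 (SD, n = 4). Just outside, Ntab18g018580-1.1 averaged 17.1 ± 5.23 against 16.0 ± 3.00 CPM and Ntab18g018570-1.1 5.57 ± 1.28 against 3.97 ± 0.317 CPM. At the other end, Ntab18g022210-1.1 inside averaged 8.85 ± 1.23 against 20.2 ± 4.96 CPM and Ntab18g022200-1.1 4.24 ± 1.66 against 7.15 ± 2.55. Of these 4 inside models, Ntab18g018660-1.1 (edgeR adjusted p = 0.089) and Ntab18g022200-1.1 (0.46, with overlapping libraries) were not called. The next models outside, Ntab18g022240-1.1 and Ntab18g022250-1.1, averaged 6.21 ± 0.791 against 4.98 ± 1.29 and 33.8 ± 10.8 against 29.2 ± 2.29 CPM. Among the 1277 tested gene models of ID group 18 outside the stretch, 0 were called by edgeR, 163 had an unadjusted p under 0.05 (12.8%), and DESeq2 called 14. The ends were drawn on these libraries, so these values carry no test of them.

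Single members show how the shift looked at the level of a gene model. Ntab18g021320-1.1 was at 2.15, 2.73 and 1.74 CPM in nic1 nic2 and at 9.08, 10.3, 7.24 and 8.54 CPM in nic1 nic2 myc2a. Its log2 fold change was 1.99 (SE 0.19), and K326 and myc2a averaged 6.93 and 8.08 CPM. Every library of nic1 nic2 was below every library of the other genotypes. The largest log2 fold change among called members of the stretch, 2.44 (SE 0.51), belonged to Ntab18g018760-1.1 with 2.78, 1.81 and 1.00 against 8.88, 5.81, 14.8 and 11.1 CPM. This call was lost in 15 of 28 alternative settings, including the one without nic1 nic2 replicate 3 (edgeR adjusted p = 0.21). Ntab18g020500-1.1, the third in size at 1.93 (SE 0.38) among called members, was lowest by far in nic1 nic2 replicate 3, with 13.2, 11.1 and 3.60 against 27.8, 31.8, 39.4 and 43.1 CPM. It lost its call in 6 of 28 settings, the one without that replicate (edgeR adjusted p = 0.079) among them.

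The most abundant called members followed the same pattern with fuller counts. Ntab18g020970-1.1 was at 164, 170 and 87.2 CPM in nic1 nic2 and at 420, 267, 370 and 358 CPM in nic1 nic2 myc2a, a difference of 1.33 in log2 (SE 0.21) with an edgeR adjusted p of 0.0039. Its K326 mean was 454 ± 32.1 CPM (SD, n = 4). Ntab18g020360-1.1 rose from 96.6, 116 and 80.2 CPM to 192, 173, 188 and 177 CPM (log2 fold change 0.90, SE 0.13). For Ntab18g021820-1.1 the difference was smaller, 108, 107 and 144 against 185, 222, 188 and 185 CPM (0.70, SE 0.13), and this call was lost without nic1 nic2 replicate 1 or 2.

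A few well measured members showed little or no difference. Ntab18g020050-1.1 was at 7.44, 7.03 and 4.69 CPM in nic1 nic2 and at 6.84, 7.25, 2.85 and 6.64 CPM in nic1 nic2 myc2a, with a log2 fold change of -0.12 (SE 0.39). Ntab18g020370-1.1, next in the order to the abundant Ntab18g020360-1.1, averaged 8.37 ± 1.70 against 9.36 ± 1.09 CPM. Ntab18g019460-1.1 was at 6.68 and 6.44 CPM in 2 nic1 nic2 libraries and at 16.2 in replicate 3, so its groups overlapped. The lowest member, Ntab18g021740-1.1, chosen after its values were seen, was at 29.4, 19.7 and 18.1 against 3.21, 11.9, 11.5 and 4.92 CPM (log2 fold change -1.51, SE 0.66) and ranged from 6.12 to 58.4 CPM within myc2a.

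Whether the step from nic1 nic2 to nic1 nic2 myc2a differed from the step from K326 to myc2a was tested as an interaction. These steps share no library. Of the stretch members, 54 were called for the interaction, 53 of them also among the 97, against 0.235% of all tested gene models. The stretch had been found as low in these same nic1 nic2 libraries, which enter the interaction. Such an excess was therefore fixed by the choice of the stretch and is a description only. In myc2a against K326, 1 member was called, 8 had an unadjusted p under 0.05 against 5.21% of all tested gene models, and the median log2 fold change of the 194 was 0.00. The other called members missed the threshold for the interaction, which does not show that their steps were alike.

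Outside the stretch, 77 of 42755 tested gene models were called (0.18%), 35 higher (0.0819%) and 42 lower (0.0982%) in nic1 nic2 myc2a. They were spread over 22 ID groups, with 10 in ID group 19 and 8 each in ID groups 5, 7 and 24. Of the 35 higher, 13 were under 2-fold, 4 between 2- and 4-fold, and 18 over 4-fold. Of the 42 lower these numbers were 15, 14 and 13. The large changes were mostly gene models that were nearly absent in 1 genotype, meaning at least 16-fold different and under 0.5 CPM in every library: 13 were lacking in nic1 nic2, and 9 were lacking in nic1 nic2 myc2a. Without nic1 nic2 replicate 3 there were 40 calls, without nic1 nic2 myc2a replicate 4 there were 41, and without myc2a replicate 5, which acts through the shared estimate of the spread, there were 174.

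The strongest fall was a run of neighbouring models in ID group 19, serial numbers 19530 to 19610. The table holds 9 models there, 7 were tested, and all 7 were called lower. Their summed level was 174, 179 and 182 CPM in nic1 nic2 and 7.04, 6.79, 7.69 and 5.88 CPM in nic1 nic2 myc2a. No library of one genotype came near the other. In K326 the sum was 188 ± 6.95 CPM (SD, n = 4) and in myc2a 185 ± 6.70 (SD, n = 5), so nic1 nic2 myc2a was the one genotype of the 4 in which the run was low.

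Of the 7 models, 5 were nearly absent. Ntab19g019550-1.1 was at 12.2, 9.03 and 5.60 CPM in nic1 nic2 and at 0 counts in all 4 nic1 nic2 myc2a libraries, which makes it at least 101-fold lower with a floor of 3 counts per library. This floor, used for all such bounds below, takes counts as separate fragments. The bounds would be smaller if both mates of a pair were counted. Ntab19g019570-1.1, at 9.04, 7.61 and 9.18 CPM against 0, was at least 97.3-fold lower. Ntab19g019530-1.1, at about 1 CPM against 0, was at least 11.4-fold lower, and its call was lost with the 7 libraries alone (edgeR adjusted p = 0.097). Ntab19g019590-1.1 fell from 28.3, 27.6 and 52.6 CPM to 0 in 3 libraries and 0.121 CPM in the other, and Ntab19g019610-1.1 from 20.3, 17.7 and 15.2 CPM to between 0 and 0.332 CPM. The remaining members kept a residue in every library. Ntab19g019560-1.1 went from 45.0, 50.1 and 38.3 CPM to 2.42, 2.84, 4.09 and 2.87 CPM (log2 fold change -3.86, SE 0.16). For Ntab19g019580-1.1, the most abundant of the run, the values were 58.0, 66.1 and 60.2 against 4.62, 3.90, 3.60 and 2.56 CPM (-4.06, SE 0.15). All 7 were called for the interaction, with edgeR adjusted p-values from 3.70e-09 to 0.0117. The libraries by which they were picked enter the interaction, so this is a description. Among the 20 models flanking the run, the nearest 10 on each side with a mean log2 CPM of 1 or more, 0 were called by edgeR or DESeq2, 6 had an unadjusted p under 0.05, and log2 fold changes ranged from -0.51 to 0.61.

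The strongest rise was a run in ID group 24, serial numbers 14040 to 14150, where the lacking genotype was nic1 nic2. The table holds 12 models there, 9 were tested, and 8 were called higher and nearly absent in nic1 nic2. The summed level of the tested models was 0.333, 0.223 and 0.572 CPM in nic1 nic2 and 128, 93.6, 111 and 93.4 CPM in nic1 nic2 myc2a. K326 was at 131 ± 17.7 CPM and myc2a at 120 ± 27.8 CPM, beside nic1 nic2 myc2a. As in the stretch, nic1 nic2 was the genotype that stood apart.

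Most of that sum came from Ntab24g014050-1.1, which was at 0.181, 0.223 and 0.343 CPM in nic1 nic2 and at 70.7, 35.3, 56.3 and 33.8 CPM in nic1 nic2 myc2a. Ntab24g014140-1.1 had 0 counts in all 3 nic1 nic2 libraries against 13.3, 11.7, 9.70 and 12.1 CPM, at least 135-fold higher with the same floor. Ntab24g014090-1.1, at 0 against 6.45, 4.84, 8.47 and 5.85 CPM, was at least 73.9-fold higher. Between 12.6 and 19.2 CPM were found for Ntab24g014130-1.1 in nic1 nic2 myc2a, against 0 to 0.229 in nic1 nic2. Ntab24g014150-1.1 and Ntab24g014070-1.1 averaged 12.6 ± 2.87 and 7.83 ± 1.47 CPM (SD, n = 4), and each had counts in 1 nic1 nic2 library, at 0.0605 CPM. The lowest called members, Ntab24g014040-1.1 and Ntab24g014100-1.1, averaged 1.10 ± 0.697 and 0.764 ± 0.335 CPM against 0. The ninth, Ntab24g014060-1.1, at 0 against 0.143 to 1.14 CPM, was not called (edgeR adjusted p = 0.15). All 8 called members were also called for the interaction. This too is a description, since the libraries by which they were picked enter it. Not called by limma-voom, with or without sample quality weights, were Ntab24g014040-1.1, Ntab24g014050-1.1, Ntab24g014090-1.1 and Ntab24g014100-1.1 (limma-voom adjusted p from 0.052 to 0.16). With the 7 libraries alone, the calls of Ntab24g014040-1.1 and Ntab24g014100-1.1 were lost too. Among the 20 flanking models, chosen in the same way, 0 were called by edgeR or DESeq2 and 3 had an unadjusted p under 0.05.

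**Figure D3:**
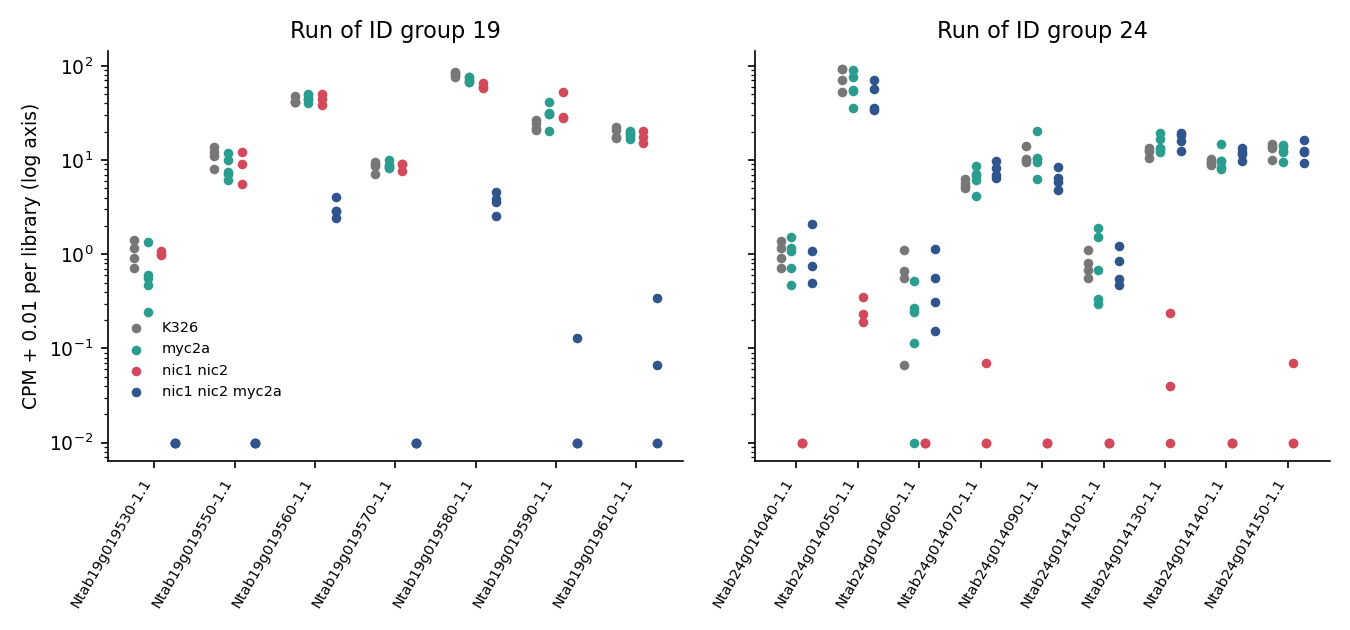
CPM plus 0.01 per library on a log axis for the 7 tested models of the run in ID group 19 and the 9 of the run in ID group 24, each point 1 library of K326, myc2a, nic1 nic2 or nic1 nic2 myc2a. In ID group 19 the nic1 nic2 myc2a points lie apart at 4.62 CPM or less, and in ID group 24 the nic1 nic2 points lie apart at 0.343 CPM or less for the 8 called models. For Ntab24g014060-1.1, which was not called, 1 myc2a library is at 0 as in nic1 nic2.

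Models next to each other in a run may be near-identical copies or parts of 1 gene that share reads. How such reads were counted is not given in the sources used here, so the number of separate genes behind each run is uncertain.

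Lone models nearly absent in 1 genotype were fewer and mostly low. Ntab07g010200-1.1 was the clearest, at 7.14, 7.17 and 6.03 CPM in nic1 nic2, at 6.06 ± 0.471 CPM in K326 and 6.13 ± 1.89 CPM in myc2a, and at 0 counts in all 4 nic1 nic2 myc2a libraries, at least 76.6-fold lower. It was called in all 28 alternative settings, and 0 of its 7 tested neighbours within 50 serial numbers were called by edgeR or DESeq2 or had an unadjusted p under 0.05. Ntab05g011910-1.1 was at 8.62, 3.90 and 4.89 CPM against 0.467, 0, 0.0601 and 0.181 CPM, but the 5 myc2a libraries ranged from 0.751 to 10.7 CPM and its interaction was not called (edgeR adjusted p = 0.14). Its call was lost by limma-voom without and with sample quality weights (adjusted p = 0.257 and 0.125). With the 7 libraries alone it was lost too (edgeR adjusted p = 0.054). Ntab03g023410-1.1 averaged 0.518 ± 0.151 CPM against 0 counts, at least 5.85-fold lower, and Ntab08g007090-1.1 0.503 ± 0.346 against 0.00751 ± 0.0150. The call of Ntab08g007090-1.1 was lost in 15 of the 25 settings that gave it a value, nic1 nic2 replicate 3 left out (edgeR adjusted p = 0.14) among them. That of Ntab03g023410-1.1 was lost by limma-voom (adjusted p = 0.0996) and with the 7 libraries alone (edgeR adjusted p = 0.225).

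In the opposite direction, 5 lone models were nearly absent in nic1 nic2. Ntab05g016150-1.1, Ntab23g011890-1.1, Ntab10g023230-1.1, Ntab13g005430-1.1 and Ntab03g028980-1.1 averaged between 0.295 and 1.18 CPM in nic1 nic2 myc2a and between 0 and 0.0558 CPM in nic1 nic2. None of the 5 was called for the interaction, with edgeR adjusted p-values from 0.054 to 0.17. Each lost its call in 7 to 22 of the 26 to 28 alternative settings that gave it a value, including those without nic1 nic2 replicate 1 or 3. Without replicate 3 their edgeR adjusted p-values were 0.067 to 0.11. At these levels the differences thus rest on few counts.

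The 62 calls outside the stretch and the runs, 27 higher and 35 lower, were mostly moderate. Only Ntab05g001120-1.1 and Ntab05g001130-1.1 among them lay within 100 serial numbers of another called model of the same direction. By which group means lay nearest to each other, a description with no test, the 77 calls outside the stretch divided into 35 with nic1 nic2 apart from the other 3 genotypes, 28 with nic1 nic2 myc2a apart, 11 with both myc2a genotypes together, and 3 with other arrangements. The same rule put 19582 of the 43009 tested gene models with nic1 nic2 apart and 13178 with nic1 nic2 myc2a apart. It put 5249 with both myc2a genotypes together and 5000 in other arrangements. The main shares of the 77 lie near these, so the split is not read as a trait of the calls. Of the 97 stretch calls, 96 had nic1 nic2 apart, the pattern by which the stretch had been found.

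Among calls with nic1 nic2 myc2a apart, Ntab17g022870-1.1 was at 23.7, 24.2 and 27.0 CPM in nic1 nic2 and at 10.7, 11.1, 9.01 and 13.1 CPM in nic1 nic2 myc2a, a difference of -1.19 in log2 (SE 0.12) with an edgeR adjusted p of 3.96e-05. K326 and myc2a averaged 31.5 ± 0.435 and 30.9 ± 1.85 CPM, the interaction was called (edgeR adjusted p = 0.00156), and the call held in all 28 alternative settings. Ntab03g030050-1.1 was higher, from 23.2, 24.1 and 22.9 CPM to 47.5, 37.3, 40.2 and 41.5 CPM, with K326 at 24.02 ± 0.642 and myc2a at 23.2 ± 1.67 CPM, so that only nic1 nic2 myc2a of the 4 genotypes left that level. Its log2 fold change was 0.83 (SE 0.11) and its interaction was called (edgeR adjusted p = 0.00778). With the 7 libraries alone its call was lost (edgeR adjusted p = 0.063).

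Ntab07g016500-1.1 fell from 40.2, 50.8 and 27.8 CPM to 5.46, 8.48, 5.11 and 4.34 CPM (log2 fold change -2.76, SE 0.46). In myc2a the 5 libraries ranged from 7.49 to 51.5 CPM, and the interaction was not called (edgeR adjusted p = 0.13). Its surroundings, looked at after the values were seen, leaned the same way. Of 11 tested neighbours within 70 serial numbers 10 had a negative log2 fold change, 6 of them at -0.9 or lower, and 6 of the 11 had an unadjusted p under 0.05. By edgeR 0 were called and by DESeq2 3. The neighbour Ntab07g016470-1.1, for example, was at 280, 234 and 166 against 115, 160, 95.3 and 85.1 CPM (log2 fold change -0.997, SE 0.24, edgeR adjusted p = 0.095). Ntab00g002450-1.1 averaged 7.77 ± 1.59 CPM in nic1 nic2, against 2.27 ± 1.03 with myc2a added (-1.77, SE 0.34). It lost its call in 9 of 28 settings, among them without nic1 nic2 replicate 3 (edgeR adjusted p = 0.099).

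Other named models had nic1 nic2 apart or arrangements of their own. Ntab08g016150-1.1 was at 0.605, 0.223 and 0.572 CPM in nic1 nic2 and at 3.91, 2.78, 2.37 and 2.99 CPM in nic1 nic2 myc2a, with K326 at 2.96 ± 1.21 CPM and myc2a at 3.25 ± 0.841. Ntab07g000030-1.1 was at 2.15, 1.70 and 1.14 against 6.98, 5.87, 6.46 and 8.75 CPM, with 5.58 ± 1.87 CPM in K326. Ntab13g002760-1.1 was highest in nic1 nic2, at 28.4, 35.6 and 39.5 CPM, against 19.5, 17.3, 12.1 and 18.3 CPM in nic1 nic2 myc2a and 12.6 ± 1.30 CPM in K326. These 3 thus had a level in nic1 nic2 myc2a nearer to K326 than in nic1 nic2. Ntab14g014160-1.1 was at 23.2, 20.8 and 26.7 against 7.71, 13.4, 11.8 and 11.3 CPM, while myc2a averaged 21.9 ± 3.89 and K326 15.9 ± 2.27. Ntab16g004870-1.1 was lowest in nic1 nic2 at 0.558 ± 0.140 CPM and highest in nic1 nic2 myc2a at 2.57 ± 0.772 CPM, with K326 at 1.53 ± 0.117. All 5 of these calls except that of Ntab08g016150-1.1 were lost without nic1 nic2 replicate 3. The edgeR adjusted p-values were then 0.11 for Ntab07g000030-1.1, 0.070 for Ntab13g002760-1.1, 0.052 for Ntab14g014160-1.1 and 0.11 for Ntab16g004870-1.1. The call of Ntab08g016150-1.1 was lost by limma-voom, without and with sample quality weights (adjusted p = 0.12 in each). It was also lost with the 7 libraries alone (edgeR adjusted p = 0.087).

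The most abundant called models outside the stretch, chosen after their values were seen, had log2 fold changes of -0.72, 0.85 and -1.19. Ntab22g004910-1.1 was at 298, 347 and 452 CPM in nic1 nic2 and at 194, 218, 228 and 244 CPM in nic1 nic2 myc2a, with K326 between 230 and 242 CPM. Ntab13g012550-1.1 was at 129, 141 and 109 against 246, 208, 209 and 245 CPM, with K326 between 188 and 246. Ntab16g017980-1.1 was at 116, 141 and 207 against 53.7, 82.9, 78.7 and 55.9 CPM, with K326 between 132 and 153. The groups did not overlap in any of these 3, and the first 2 had nic1 nic2 apart while the last had nic1 nic2 myc2a apart. Each of the 3 calls was lost when some single library was left out.

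To ask which differences also followed myc2a when the Nic alleles were dominant, the same fit was read for myc2a against K326. There 73 gene models were called (0.17%), 14 higher and 59 lower. They were not scattered: most lay in ID group 11 between serial numbers 13460 and 25850. Another set lay side by side in ID group 8, serial numbers 28890 to 28950. The median log2 fold change of the 59 lower was -1.07 in myc2a against K326 and 0.04 here. The count of 73 moved widely, from 19 without K326 replicate 2 to 434 without myc2a replicate 1, and was 36 with a replicate block. The shares below thus rest mainly on a few neighbourhoods and hold for this fit only. Of the 73, 3 were also called here outside the stretch, all in the same direction. That is 3.90% of the 77 calls here and 4.11% of the 73. For none of the 3 was the interaction called. Of the 73, 30 had the same sign here, 12 of them with an unadjusted p under 0.05, and 20 were called for the interaction. The 30 are fewer than those without the same sign. An unadjusted p under 0.05 was found here for 13.2% of all tested gene models, in either direction. Neither the 30 nor the 12 is read as a result. Over all tested gene models 101 were called for the interaction (0.235%), 84 positive and 17 negative, and 22 of the 77 calls outside the stretch were among them. Models picked by a difference in either step carry that difference into the interaction. The 20 of 73 and the 22 of 77 are therefore descriptions only.

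**Figure D4:**
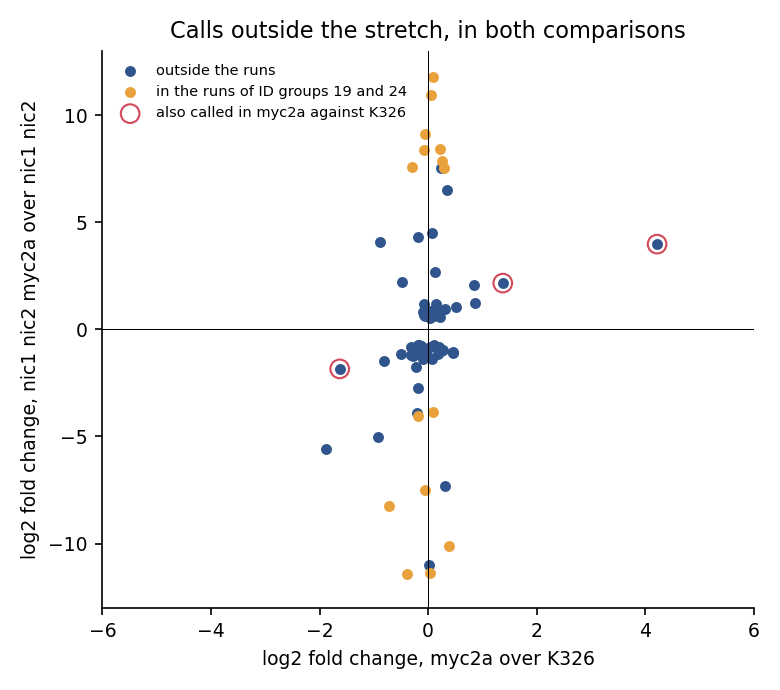
Log2 fold change of nic1 nic2 myc2a over nic1 nic2 against that of myc2a over K326 for the 77 models called outside the stretch, with the runs of ID groups 19 and 24 in orange and the 3 models called in both comparisons ringed. Most points lie along the vertical axis, and for models without counts in a genotype the fitted height depends on the prior count and is no measured fold.

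The 3 shared models lay in ID groups 5 and 6. Ntab05g001130-1.1 was at 4.08, 4.57 and 5.38 CPM in nic1 nic2 and at 21.7, 25.3, 16.2 and 20.2 CPM in nic1 nic2 myc2a, and at 5.85 ± 1.29 CPM in K326 and 15.2 ± 4.19 CPM in myc2a. The log2 fold changes were 2.15 here and 1.38 in myc2a against K326, with edgeR adjusted p-values of 0.00031 and 0.013. Both genotypes with myc2a thus lay above both without it, with no overlap of libraries. Ntab05g002080-1.1 fell, from 45.9, 52.7 and 35.6 CPM to 11.9, 22.5, 7.21 and 8.02 CPM, and averaged 35.0 ± 10.1 CPM in K326 and 11.4 ± 4.11 in myc2a (log2 fold changes -1.85 and -1.63). Its call in myc2a against K326 was at the threshold, with an edgeR adjusted p of 0.0499, and held in 10 of 27 alternative settings. Ntab06g019810-1.1 was low without myc2a, at 0.514, 0.781 and 0.172 CPM in nic1 nic2 and 0.368 ± 0.188 CPM in K326. With myc2a it was at 3.39, 6.04, 10.0 and 11.5 CPM in nic1 nic2 myc2a and between 1.60 and 15.0 CPM in myc2a (log2 fold changes 3.97 and 4.22). The call of Ntab05g001130-1.1 here held without any 1 library, and its call in myc2a against K326 held in 22 of 27 settings. For Ntab06g019810-1.1 the latter held in 21 of 27. Its call here was lost without nic1 nic2 replicate 1 or 3 (edgeR adjusted p = 0.098 without replicate 3). It was also lost by limma-voom without and with sample quality weights (adjusted p = 0.27 and 0.34). The call of Ntab05g002080-1.1 here was lost without nic1 nic2 replicate 1 or 2 or nic1 nic2 myc2a replicate 1, 3 or 4. With the 7 libraries alone it was lost too (edgeR adjusted p = 0.12).

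Neighbours of these models behaved alike in part. Ntab05g001120-1.1, next to Ntab05g001130-1.1, was at 7.83, 9.15 and 6.78 CPM in nic1 nic2 and at 17.4, 19.8, 15.7 and 21.4 CPM in nic1 nic2 myc2a. It was called here (log2 fold change 1.23, SE 0.22), with 6.52 ± 0.827 CPM in K326 and 11.9 ± 3.54 in myc2a (edgeR adjusted p = 0.11 in myc2a against K326). Its call here was lost without nic1 nic2 replicate 1 or 3 (edgeR adjusted p = 0.091 without replicate 3) or nic1 nic2 myc2a replicate 4. A few serial numbers on, Ntab05g001160-1.1 moved the other way, from 27.2, 24.1 and 26.3 CPM to 9.43, 9.19, 11.5 and 6.58 CPM (log2 fold change -1.49, SE 0.23). It was at 23.5 ± 3.48 CPM in K326 and 13.4 ± 3.99 in myc2a (edgeR adjusted p = 0.18 in that comparison). Models between them, Ntab05g001140-1.1 and Ntab05g001150-1.1, were not called. Next to Ntab06g019810-1.1, Ntab06g019820-1.1 was at 0.605, 0.781 and 0 CPM against 3.56, 2.55, 7.99 and 10.5 CPM. Its edgeR adjusted p was 0.099 here and 0.021 in myc2a against K326. Ntab05g002070-1.1, beside Ntab05g002080-1.1, averaged 7.71 ± 4.76 against 1.93 ± 1.42 CPM and was called in neither comparison. Adjacent models with like changes may share reads, as in the runs.

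**Figure D5:**
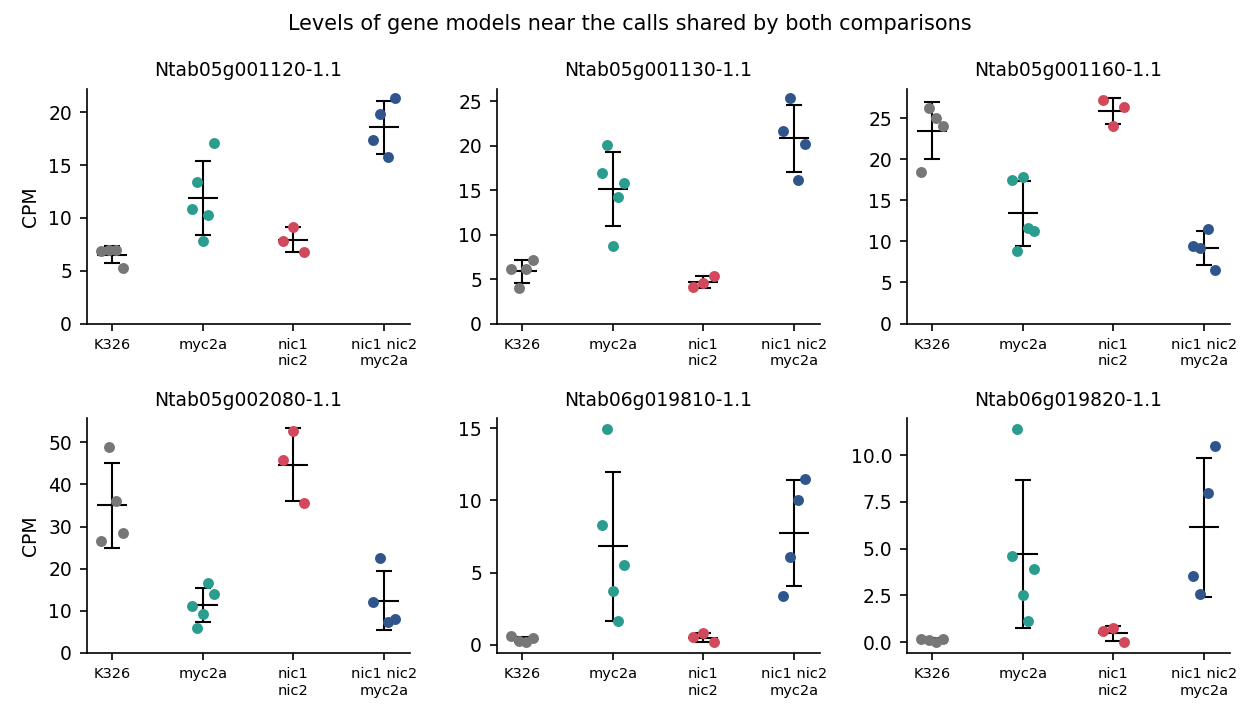
CPM per library, with mean and SD as bars, of the 3 models called both here and in myc2a against K326 and of 3 models near them, in the 4 genotypes. The upper row shows a pair higher with myc2a and a model lower with myc2a a few serial numbers on, and the lower row a model lower and a pair higher with myc2a.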

How the data were processed

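The authors deposited a table of whole-number counts per gene model and library. The tools named, per the submitters' processing notes, were HISAT2 2.1.0, FastQC, bedtools and SAMtools. The library kit was directional, per the labels' protocols. The genome build, annotation, counting tool and its strand setting are not given in the sources used here. Between 59.7 and 65.6% of counts from 1 to under 200 were even, so both mates of a pair may have been counted, and counts may exceed fragments. Columns were matched to libraries by genotype letters and number, the letters of nic1 nic2 myc2a standing in another order in the sample titles.

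The main analysis used edgeR 4.0.16 in R 4.3.3 (filterByExpr defaults, TMM scaling, quasi-likelihood fit of 1 mean per genotype to all 16 libraries, 12 residual degrees of freedom, Benjamini-Hochberg adjustment over 43009 gene models, threshold 0.05). CPM used TMM-scaled library sizes. Log2 CPM used a prior count of 2, and the stretch level per library is the median ratio of CPM plus 0.5. Bounds for models without counts used 3 counts per library, take counts as separate fragments and cover counting error only. They would be smaller if both mates of a pair were counted. Replicate libraries differed by more than sampling noise. On simulated data 32% of 2-fold and 69% of 4-fold changes were recovered, with 2.88% false calls. DESeq2 1.42.0, limma 3.58.1, other scalings and filters, fewer libraries and a replicate block were alternatives.

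The stretch, the comparison and the naming rule were chosen with earlier results of these data known. The rule names, outside the stretch, the 12 largest rises and falls among called models of at least 2 CPM without overlap, every model nearly absent in 1 genotype, and models also called in myc2a against K326 or for the interaction. Inside, it names the 3 largest changes among called members, the 3 most abundant called members and the 3 smallest changes (the last among models of at least 5 CPM). It also names 2 models at each side of each end.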

Additional observations from a re-analysis of the deposited data

Results flagged for a closer look

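For 25 of the named gene models the change from nic1 nic2 to nic1 nic2 myc2a differed from the change from K326 to myc2a in the interaction term (edgeR, Benjamini-Hochberg adjusted over all tested models). Of these, 22 lie outside the stretch, where a called interaction was itself a ground for naming, so their number was fixed by the choice. The adjusted p-values in ID group 19 were 0.0117 for Ntab19g019530-1.1, 1.38e-06 for Ntab19g019550-1.1, 6.84e-09 for Ntab19g019560-1.1, 3.70e-09 for both Ntab19g019570-1.1 and Ntab19g019580-1.1, 1.06e-08 for Ntab19g019590-1.1 and 4.25e-07 for Ntab19g019610-1.1. In the run of ID group 24 they were 0.00568 for Ntab24g014040-1.1, 1.25e-07 for Ntab24g014050-1.1, 2.51e-07 for Ntab24g014070-1.1, 6.44e-06 for Ntab24g014090-1.1, 0.0468 for Ntab24g014100-1.1, 3.07e-07 for Ntab24g014130-1.1, 1.21e-08 for Ntab24g014140-1.1 and 1.29e-08 for Ntab24g014150-1.1. Stretch members had 0.00596 for Ntab18g020360-1.1, 0.00919 for Ntab18g020970-1.1 and 0.00161 for Ntab18g021320-1.1. The remaining values were 0.00604 for Ntab03g023410-1.1, 0.00778 for Ntab03g030050-1.1, 1.51e-07 for Ntab07g010200-1.1, 0.01004 for Ntab13g002760-1.1, 0.00753 for Ntab14g014160-1.1, 0.0473 for Ntab16g004870-1.1 and 0.00156 for Ntab17g022870-1.1.

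In 17 of 168 groups of 4 or 5 libraries (10.1%), 1 library lay far from the others of its genotype by Dixon's criterion, which chance gives in about 1 of 20 groups. The flags of Ntab08g007090-1.1 and Ntab19g019590-1.1 were set by a single library with counts among libraries at 0, where any count is flagged, and cannot be read against that rate. In nic1 nic2 myc2a these were replicate 3 for Ntab08g007090-1.1 (0.0300 CPM), Ntab18g018660-1.1 (8.92 CPM), Ntab18g019460-1.1 (9.97 CPM) and Ntab18g020050-1.1 (2.85 CPM), replicate 2 for Ntab18g021820-1.1 (222 CPM), replicate 1 for Ntab18g022250-1.1 (25.8 CPM) and replicate 4 for Ntab19g019590-1.1 (0.121 CPM). In myc2a they were replicate 5 for Ntab18g018660-1.1 (14.2 CPM), Ntab18g020500-1.1 (14.4 CPM) and Ntab24g014140-1.1 (14.9 CPM), and replicate 4 for Ntab19g019570-1.1 (10.1 CPM). In K326 they were replicate 1 for Ntab07g000030-1.1 (2.78 CPM), replicate 2 for Ntab18g022210-1.1 (29.3 CPM), replicate 3 for Ntab18g022240-1.1 (3.44 CPM) and Ntab18g022250-1.1 (22.7 CPM), and replicate 4 for Ntab05g001120-1.1 (5.29 CPM) and Ntab19g019560-1.1 (48.4 CPM).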

How the results depend on the processing

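No call of a named gene model changed its sign under the alternatives that gave it a value, 28 for all but 3 models (25 to 27). DESeq2 called 638 gene models (361 higher, 277 lower), 497 of them outside the stretch (220 higher, 277 lower), 248 in myc2a against K326 and 305 for the interaction. limma-voom called 23 higher outside the stretch, and with sample quality weights 473 in myc2a against K326 and 173 for the interaction. With the 7 libraries alone 68 were called (49 higher, 19 lower), 31 outside the stretch (12 higher, 19 lower) and 37 inside. Leaving out both nic1 nic2 replicate 3 and K326 replicate 2, 18 were lower, 32 outside the stretch (14 higher, 18 lower), 22 in myc2a against K326 and 53 for the interaction. Leaving out 1 library at a time gave 126 to 291 calls (102 to 203 higher, 24 to 88 lower), 40 to 174 outside the stretch (16 to 86 higher, 24 to 88 lower), 85 to 117 inside, 19 to 434 in myc2a against K326 and 76 to 344 for the interaction. The lowest count of lower calls came without nic1 nic2 replicate 3 and without nic1 nic2 myc2a replicate 1 or 4, and the highest, 88, without myc2a replicate 5. Without myc2a replicate 1 there were 71 lower calls. The mean stretch level in nic1 nic2 myc2a, 193% of nic1 nic2, was 189% by library size only, 182% over all tested members and 101% when taken as a percent of K326. With a replicate block, 171 were called (72 outside the stretch, 99 inside), 54 of the 77 and 94 of the 97 among them, and 36 in myc2a against K326. Same-numbered libraries of both genotypes correlated at -0.06, 0.101 and 0.130 in their deviations. For nic1 nic2 replicates 2 and 3 the same number gave the highest value. By contrast, nic1 nic2 replicate 1 correlated best with nic1 nic2 myc2a replicate 4 (0.137). Whether the numbers pair the libraries cannot be settled by correlations this weak. In all 28 alternatives 15 of the 77 calls and 37 of the 97 held, and without any 1 library 26 and 70. The causes of these changes were not tested. Depth limits low models, since 0 of 60 stretch members below a mean log2 CPM of 1 were called.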
